A study of Mus musculus with 18 samples.

Results

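The genes described here are 34 interferon response and antigen presentation genes, of 38046 gene symbols measured in mouse oligodendrocyte progenitor cells (OPCs). They were chosen by symbol from a list. They fall into 4 genes for sensing foreign nucleic acid, 7 signalling and transcription genes, 15 effectors, 6 antigen presentation genes and 2 secreted proteins. All 34 were found in the table. RNA was sequenced from clonal OPC lines derived from primary neural stem cells, in 3 control clones (D7, D3 and E8) and 3 clones labelled Thap1 null (3F, D6 and 7F). THAP1 is a DNA-binding protein with a zinc finger, and the series is about its role when OPCs become oligodendrocytes. Each clone gave 1 library as proliferating OPCs (day 0, growth medium with the mitogen PDGF-AA) and 1 each after 2 and 4 days in vitro (DIV2 and DIV4) in differentiation medium with 40 μg/ml of the thyroid hormone T3. Each of the 6 groups therefore held 3 libraries. The labels do not say how the null clones were made or whether clones came from separate animals, and they name no virus or interferon treatment. P values here thus set a difference against the spread between the libraries of these clones within a group, pooled over the 6 groups. In the comparison of clone means over the 3 stages, the spread was that between the clone means of a genotype. Unless stated otherwise no clone term was fitted, so the 3 libraries of a clone counted as independent.

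Type I interferons are secreted by cells that detect viral nucleic acid, through RNA sensors such as MDA5 and LGP2. They bind the IFNAR1 and IFNAR2 receptor, whose JAK kinases activate STAT2. With IRF9 it forms part of ISGF3, the complex that binds the interferon-stimulated response element (ISRE) in promoters of antiviral genes. Interferon gamma acts at gamma-activated sites (GAS), and through IRF1 and NLRC5 it raises major histocompatibility complex (MHC) class I genes. In the oligodendrocyte lineage, interferon signalling is known from inflammation and demyelination, while resting cells hold low levels of class I antigens.

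The deposited values are TPM, which correct for transcript length and sum to a fixed total in each library. Just 3 noncoding features held between 64.8% and 88.0% of the TPM in the control OPC libraries. In null OPCs they held 34.8% in D6 and 0.789% and 1.06% in 3F and 7F. Each library was therefore rescaled by the median of its ratios to the other libraries, and levels below are rescaled TPM. With deposited TPM the median of all genes tested lay at 1.5 on the log2 scale for null against control OPCs, against 0.06 after rescaling, and at 1.96 and 2.01 for control DIV2 and DIV4 against OPC. TPM keeps no sequencing depth, so neither counting intervals nor detection limits can be given, and 0 means only that a gene was listed at 0. Summed over all its transcripts, Thap1 lay between 3.82 and 7.99 in control libraries and between 5.27 and 12.1 in libraries labelled null. Its protein-coding transcripts alone lay between 1.96 and 4.42 in control and between 0.199 and 0.785 in null libraries, with no overlap. Every OPC and oligodendrocyte marker averaged at least 1 over the 18 libraries. Of the microglial markers, C1qa and C1qb were listed at 0 in all libraries, and the sum of all 12 lay between 0.289 and 4.71. Averaged over the 18 libraries most of that sum came from P2ry12, which was listed at 0 in 1 library.

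RefSeq promoter windows (GRCm38.p6, 250 bases before to 50 after the start) were matched for 26 of the 34 members. The ISRE core GAAANNGAAA, searched on both strands, occurred in 13 of the 26: B2m, Bst2, Cxcl10, Gbp2, Gbp3, Ifih1, Ifit1, Ifit3, Ifitm3, Isg15, Oas1a, Rsad2 and Stat2. Of the 32851 windows of the same length, 3.44% held it, as did 3.99% of 27025 genes. The GAS core TTCNNNGAA, which can overlap an ISRE, occurred in 6 of the 26 members and in 9.55% of genes. The stretches below belong to the members on which the results turn, and to Isg15 as a textbook interferon target. They are written 5′ to 3′ on the gene's strand. Capitals mark the core, or several overlapping cores, on either strand. A match describes the letters only.
Gbp3, chr3:142559974-142560039, plus strand: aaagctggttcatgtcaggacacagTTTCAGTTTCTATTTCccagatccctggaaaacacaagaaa
B2m, chr2:122147523-122147582, plus strand: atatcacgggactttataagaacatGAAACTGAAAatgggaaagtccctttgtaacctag
Stat2, chr10:128270251-128270310, plus strand: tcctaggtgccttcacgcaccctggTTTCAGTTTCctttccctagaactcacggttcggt
Irf1 (GAS core), chr11:53769899-53769957, plus strand: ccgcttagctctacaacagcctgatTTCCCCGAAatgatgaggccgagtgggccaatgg
Rsad2, chr12:26456538-26456597, minus strand: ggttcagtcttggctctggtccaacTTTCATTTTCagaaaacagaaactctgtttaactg
Isg15, chr4:156200850-156200921, minus strand: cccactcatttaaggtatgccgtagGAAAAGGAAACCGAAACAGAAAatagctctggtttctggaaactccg
The first core base lies 45 bases before the start in Gbp3, 139 in B2m, 222 in Stat2, 90 in Irf1 and 120 in Rsad2. In Isg15 it lies 78 bases before, and 3 cores overlap.

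Most of the 34 genes averaged under a rescaled TPM of 1, as did most gene symbols of the series. Only 9 members averaged at least 1 over the 18 libraries: Ifi27 (35.2), B2m (11.1), Tapbp (5.48), Irf1 (5.22), Gbp3 (4.39), Stat2 (3.10), Ifit2 (3.02), H2-D1 (2.38) and Irf9 (1.88). They make 26.5% of the members, against 32.7% of all gene symbols. A further 15 members averaged between 0.1 and 1, and 10 averaged under 0.1. Of all 38046 symbols, 6909 averaged between 0.1 and 1 and 18698 under 0.1. Textbook interferon targets lay at different levels: Ifit2 is among the 9, and Ifit3 reached 2.45. Isg15, a ubiquitin-like modifier, reached at most 0.793, and Ifit1, which binds viral RNA, at most 0.223. The antiviral Oasl2, Oas1a and Bst2 and the DNA sensor Zbp1 each stayed under 0.1 in all 18 libraries. Cxcl10, a chemokine induced by interferon, was listed at 0 in 12 libraries and reached at most 0.179. Oas1a shares 68.8% of its 31-base words with other genes, chiefly Oas1g, Isg15 12.8% and Ifit1 10.5%, so reads may have been split and these levels are uncertain.

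**Figure D1:**
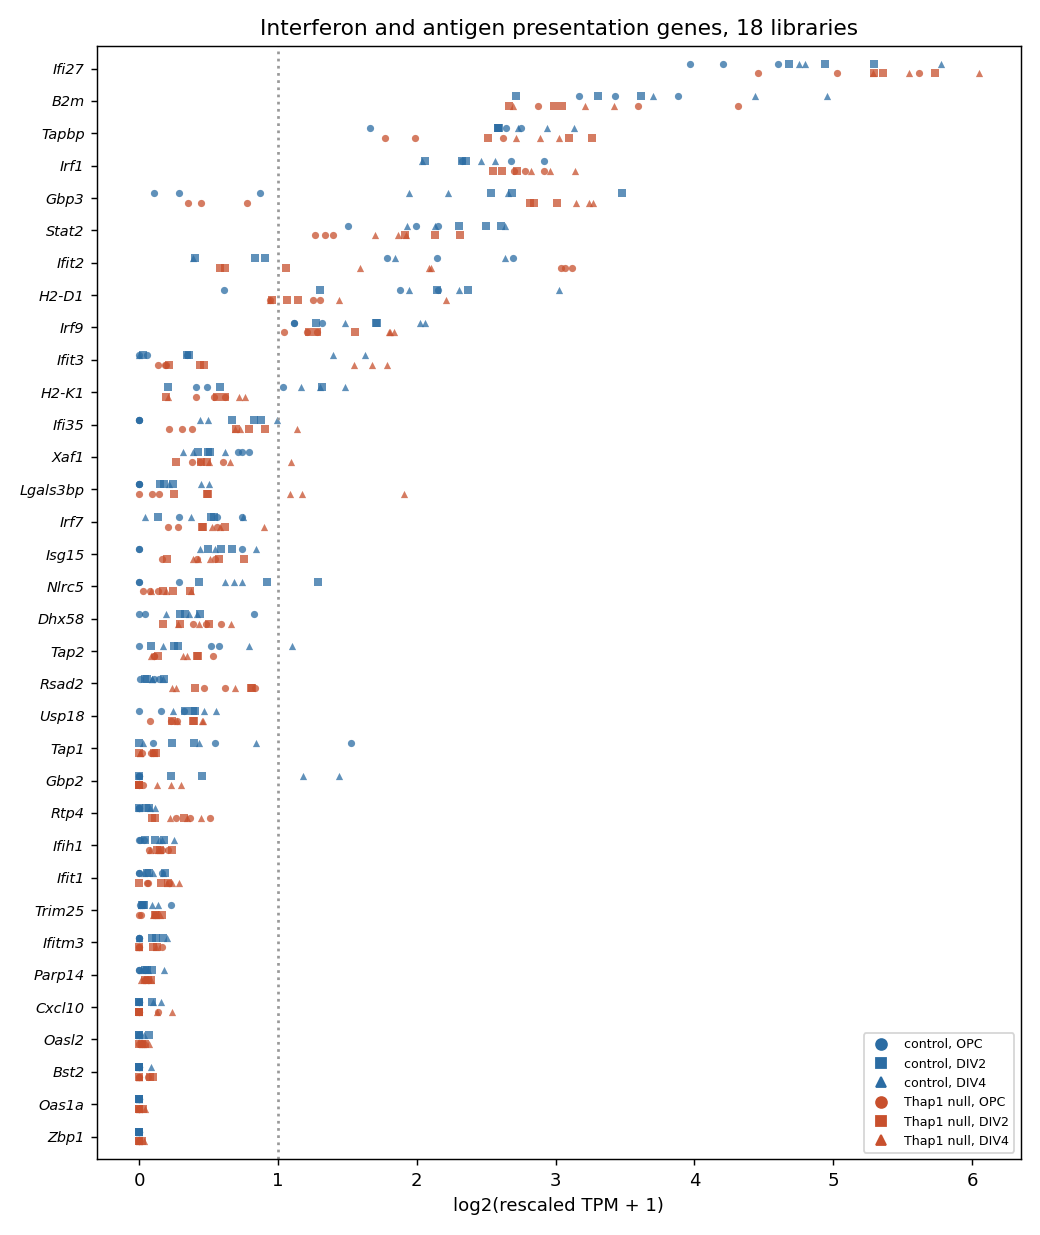
Level of each of the 34 members in all 18 libraries, as log2(rescaled TPM + 1), ordered by mean; colour gives the genotype, symbol shape the stage, and the dotted line a rescaled TPM of 1. Ifi27 and B2m stand highest, and 16 members never reach the dotted line in any library.

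The upstream machinery was measured in a wider list of 106 pathway genes, of which 37 averaged at least 1. Among its 17 receptor and signalling genes 13 did so. Ifnar1 lay between 7.09 and 13.6 and Ifnar2 between 4.57 and 9.66. Both receptor genes overlapped between genotypes at each stage. By contrast, no gene of the 12 ligands averaged 1. Ifna4, Ifnb1, Ifnl3 and Ifne were listed at 0 in all 18 libraries. Ifng reached at most 0.0511 and Ifnl2 at most 0.062. Ifnk was the highest interferon gene listed, with up to 0.618 in control D7 at DIV4 and 4 libraries at 0. Besides interferons, the ligands listed include chemokines and Il6. The highest single ligand value was that of the chemokine Ccl2, 5.28 in control E8 at DIV4.

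Only the 9 members with a mean of at least 1 entered the test, limma on log2(rescaled TPM + 1) over 12439 genes with Benjamini-Hochberg adjustment. Fold changes on that scale understate the change of low genes. Null against control OPCs gave 0 calls among the 9, against 5.95% of all genes tested called higher and 5.28% lower, and 2 members had an unadjusted p under 0.05. At DIV2 the count was again 0, against 1.58% higher and 1.09% lower, with 1 member under an unadjusted 0.05. At DIV4, 2 of the 9 were higher in null, Gbp3 and Irf1, and 0 were lower, against 2.81% and 1.77%. The comparison of clone means over the 3 stages called 0, against 2.23% higher and 1.33% lower, with 3 members under an unadjusted 0.05. The median log2 change of the 9 was 0.10 at OPC, -0.01 at DIV2 and -0.04 at DIV4, beside 0.06, 0 and 0 for all genes.

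**Figure D2:**
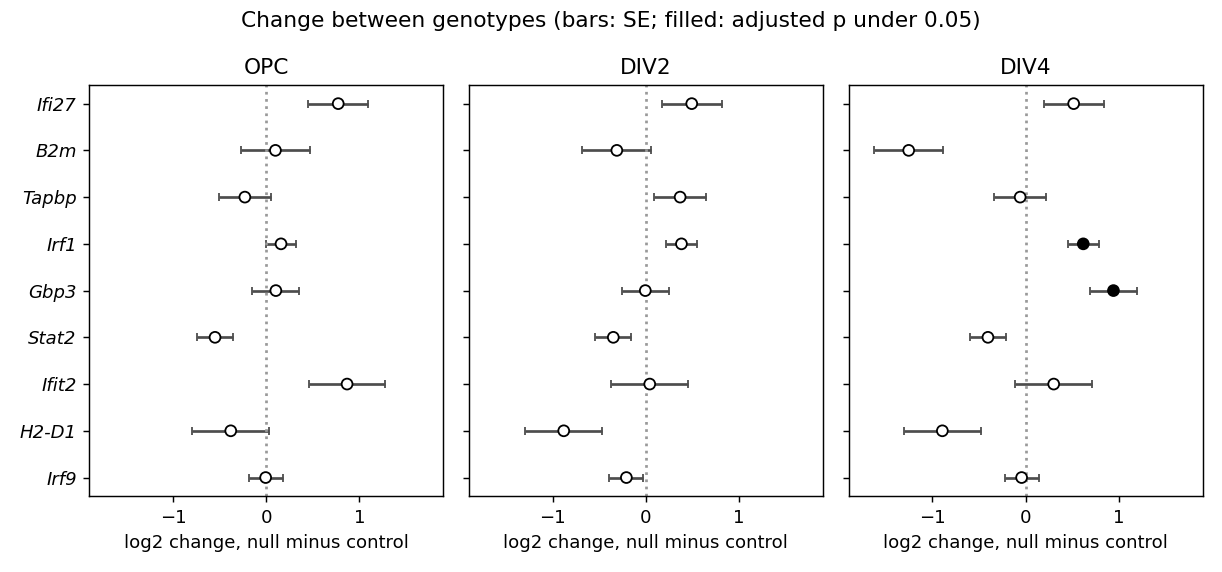
Change between genotypes (null minus control, log2 scale) for the 9 members tested, at each stage; points are limma estimates, bars their SE, and filled points have an adjusted p under 0.05. Only Irf1 (0.62) and Gbp3 (0.94) at DIV4 are filled, and B2m at DIV4 (-1.26) is the lowest estimate drawn.

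Gbp3 encodes a guanylate-binding protein, a GTPase of cell-autonomous immunity (chr3:142560026-142573209, plus strand, GRCm38). At DIV4 its level was 2.84, 3.67 and 5.32 in control D7, D3 and E8, and 8.64, 8.45 and 7.86 in null 3F, D6 and 7F. All null clones lay above all control clones, by 2.11-fold in the means. The log2 change was 0.94 (SE 0.25, n = 3 per group, limma adjusted p = 0.0477). At DIV2 the groups overlapped, with 5.43, 4.79 and 10.2 in control and 6.2, 6.05 and 7.07 in null (log2 change -0.01, SE 0.25). The higher DIV4 level followed a drop from DIV2 in control D7, D3 and E8 and a rise in all null clones. The microglial marker sum also separated the genotypes at DIV4, with 0.953 to 1.59 in control and 2.69 to 4.71 in null clones. P2ry12, the 1 microglial marker tested, was higher in null clones there (1.15, SE 0.25, limma adjusted p = 0.0169). Averaged over the 18 libraries it made most of the sum, and the other 11 markers averaged under 0.1. From OPC to DIV2 P2ry12 rose in both genotypes, by 1.06 in control and 1.12 in null clones. The part of its DIV4 difference in the member values was not tested. The Gbp3 interaction, the null change from OPC to DIV4 minus the control change, was 0.84 (SE 0.36, limma adjusted p = 0.214). With the clone as a block it was called (0.84, SE 0.20, limma adjusted p = 0.0488).

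Irf1, a transcription factor that activates MHC class I and other interferon gamma targets, showed the second call. At DIV4 it stood at 3.11, 4.50 and 4.93 in the control clones and 7.80, 6.09 and 6.80 in the null clones. The groups did not overlap, the null mean being 1.65-fold higher (log2 change 0.62, SE 0.17, n = 3 per group, limma adjusted p = 0.0476). At DIV2 the null clones (5.60, 4.85 and 5.12) also lay above the control clones (4.11, 4.01 and 3.17), without passing the test (0.38, SE 0.17, limma adjusted p = 0.308). In OPCs the groups overlapped, and the clone means differed by 0.39 (SE 0.08, limma adjusted p = 0.0583).

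Both DIV4 calls were close to the threshold. Of the other settings tried, 9 of 13 ended the Gbp3 call and 12 of 14 the Irf1 call, with log2 changes from 0.78 to 1.14 and from 0.46 to 0.73, and the limma adjusted p rose to at most 0.316 and 0.643. Among the fits without 1 clone, only the one without control E8 kept Gbp3 (adjusted p = 0.00306), and only the one without control D3 kept Irf1 (0.0343); with the clone as a block Irf1 was at 0.0559.

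Stat2 and Irf9, which act together in ISGF3, did not pass the genotype test at any stage. Stat2 in OPCs was 2.98, 1.83 and 3.46 in control and 1.40, 1.64 and 1.53 in null clones. The null clones were all below the control clones and varied little among themselves (log2 change -0.55, SE 0.19, limma adjusted p = 0.0814). Without control D3, whose value lay nearest to the null clones, the change was -0.74 (adjusted p = 0.0147), and with quantile normalization -0.73 (0.0365). With deposited TPM it was called in the opposite direction, 0.64 (adjusted p = 0.0130), beside the median of all genes of 1.5. At DIV2 Stat2 was 5.10, 3.94 and 4.66 in control and 3.97, 2.78 and 3.39 in null, with a narrow overlap. At DIV4 it was 5.21, 2.82 and 3.39 against 2.79, 2.25 and 2.65, with the null clones again all lower (-0.40, SE 0.19, limma adjusted p = 0.262).

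Irf9 lay between 1.17 and 1.49 in control OPCs and between 1.06 and 1.43 in null OPCs. At DIV2 the control values were 1.42, 2.26 and 2.28 and the null values 1.94, 1.44 and 1.34. At DIV4 they were 1.79, 3.07 and 3.17 against 2.48, 2.51 and 2.57. The groups overlapped at each stage, and the 3 genotype changes lay between -0.21 and -0.01.

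Antigen presentation genes gave no call between genotypes. B2m, the light chain of every MHC class I molecule (chr2:122147686-122153083, plus strand), was 9.77, 13.8 and 8.01 in control OPCs and 6.31, 18.9 and 11.1 in null OPCs. At DIV2 it was 5.58, 11.3 and 8.86 against 7.26, 6.94 and 5.34. Up to this point the groups overlapped. At DIV4 the control clones stood at 12, 20.6 and 30.1 and the null clones at 5.48, 9.72 and 8.26, so that no null clone reached a control clone and the control mean was 2.67-fold higher. The log2 change, -1.26 (SE 0.37), had a limma adjusted p of 0.0686 and was called without control D7 (-1.59, adjusted p = 0.0273).

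The control clones also differed in astrocyte markers at DIV4, and the sum of the 8 markers followed the order of B2m in them, at 4.87 in D7, 172 in D3 and 359 in E8. In the null clones that sum was 103 to 160, above control D7, whose B2m level was higher. The astrocytes' part in the B2m values was not tested. In bulk libraries fewer cells of a type and less RNA per cell cannot be told apart. Control D7 at DIV4 also had the highest oligodendrocyte marker sum, 8230, against 1680 to 2456 in the other DIV4 libraries.

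The heavy chain H2-K1 averaged 0.689 and was not tested. It was 0.329, 0.404 and 1.05 in control OPCs, 0.326, 0.535 and 0.452 in null OPCs, 0.158, 0.497 and 1.49 in control and 0.473, 0.534 and 0.144 in null clones at DIV2. At DIV4 control clones held 1.24, 1.47 and 1.80 and null clones 0.693, 0.648 and 0.157, the single stage at which the groups were apart. H2-D1, another heavy chain, was 1.46, 3.42 and 4.17 in control and 1.09, 1.21 and 0.939 in null clones at DIV2, with the null clones lower (-0.88, SE 0.41, limma adjusted p = 0.355). Its clone means differed by -0.72 (SE 0.32, adjusted p = 0.238), and by -1.06 without control D7 (adjusted p = 0.0374). H2-D1 shares 26.7% and H2-K1 22.8% of its 31-base words with other genes, so reads may have been split between class I copies and both levels are uncertain.

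The peptide loading genes were split by level. Tapbp (tapasin), which bridges class I molecules to the peptide transporter, was expressed throughout, between 2.17 and 8.58. Tap1 and Tap2, the transporter itself, averaged 0.248 and 0.296. Tap1 reached 1.88 in control E8 OPCs, and stayed below 0.1 in every null library and in control D7 at all 3 stages. Control E8 OPCs had 88.0% of their TPM in the 3 noncoding features, and their values were divided by 0.136 in rescaling. The part of this rescaling in the Tap1 peak was not tested. Nlrc5, the transactivator of class I genes, was 0.351, 0.893 and 1.45 in control and 0.186, 0.287 and 0.126 in null clones at DIV2. At DIV4 it was 0.606, 0.538 and 0.675 against 0.0633, 0.297 and 0.141. The null clones were below every control clone at both stages, and the fit without a filter on level gave -0.62 (limma adjusted p = 0.113) and -0.46 (0.193).

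**Figure D3:**
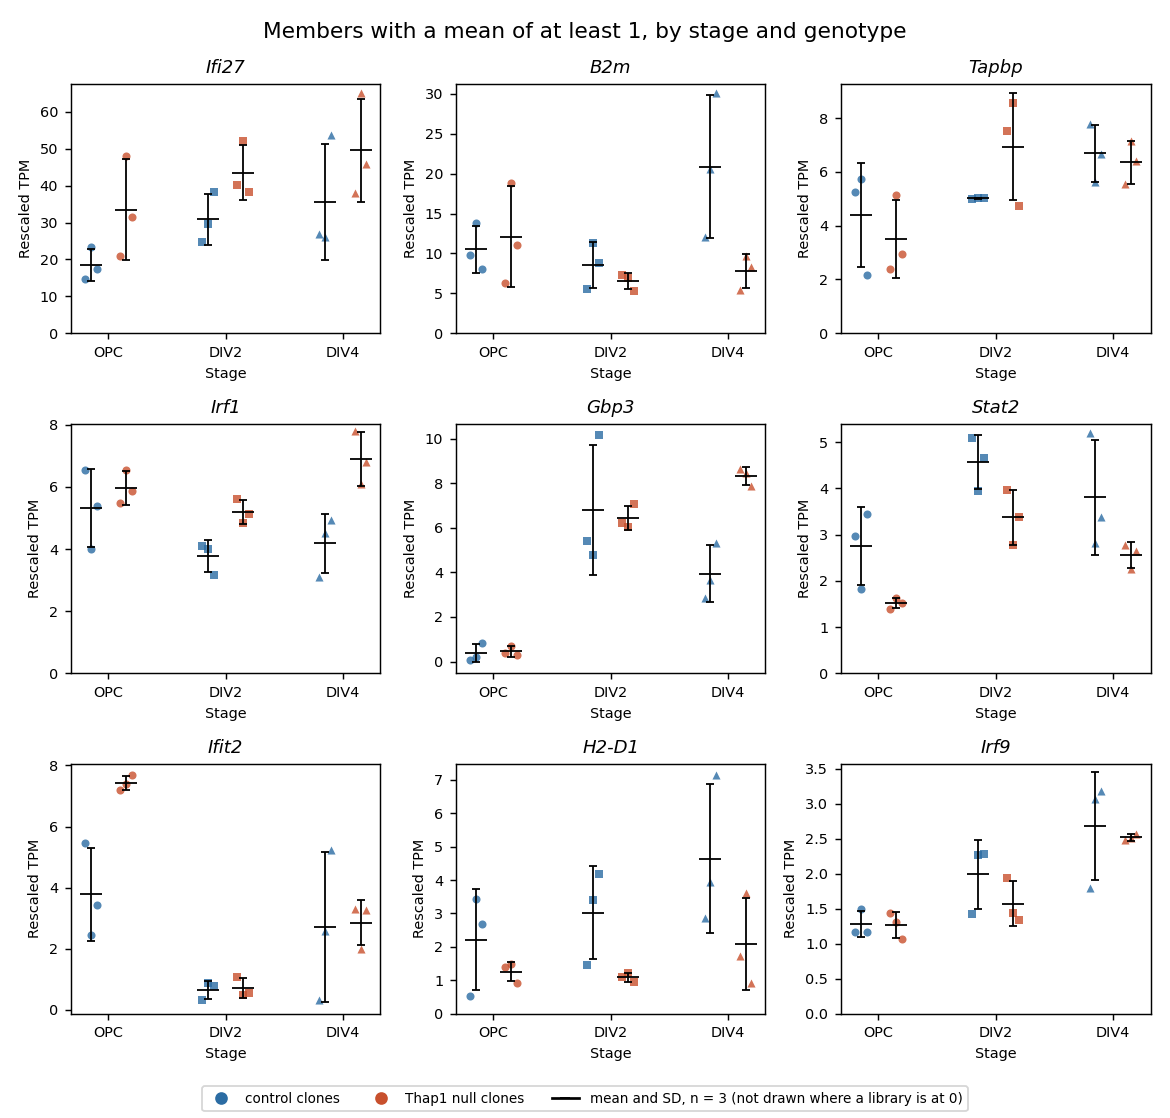
Rescaled TPM of the 9 members with a mean of at least 1, by stage, in control (blue) and null (orange) clones; bars are mean and SD, n = 3. Gbp3 is near 0 in all OPC libraries and high after, and Ifit2 is lower in all DIV2 than in all OPC libraries. At DIV4 B2m is higher in each control clone (12 to 30.1) than in any null clone (5.48 to 9.72).

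More members were called between stages than between genotypes, as was so for all genes tested. In control clones, DIV2 against OPC called Gbp3 and Stat2 higher and Ifit2 lower, 2 and 1 of 9, against 19.2% and 15.4% of all genes. DIV4 against OPC called Gbp3 and Irf9 higher and 0 lower, against 16.6% and 14.9%. In null clones, DIV2 called Gbp3, Stat2 and Tapbp higher and Ifit2 lower, against 14.9% and 12.6%. DIV4 called Gbp3 and Irf9 higher and Ifit2 lower, against 17.1% and 15.9%. These comparisons share the OPC libraries of their genotype. The interactions, the test of whether the change differed between genotypes, called 0 of 9 at DIV2 (0.177% higher and 0.201% lower among all genes) and 0 of 9 at DIV4 (1.25% and 1.17%). Of the 9, 0 members at DIV2 and 2 at DIV4 (Gbp3 and B2m) had an unadjusted interaction p under 0.05.

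Gbp3 made the largest change of the 9 members in all 4 stage comparisons. In OPCs it was 0.0768, 0.221 and 0.830 in control and 0.360, 0.714 and 0.279 in null clones. All DIV2 and DIV4 libraries lay above all OPC libraries. The log2 rise was 2.48 at DIV2 and 1.85 at DIV4 in control, and 2.37 and 2.69 in null clones (SE 0.25 each, limma adjusted p from 6.85e-06 to 0.000194). It was called in all 12 alternatives of each of these 4 comparisons. One annotated transcript held 59.6% of the Gbp3 level, and 5.64% of its 31-base words occur in other genes, chiefly Gbp7.

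Ifit2, an interferon-induced protein with tetratricopeptide repeats, moved the other way. In OPCs it was 5.46, 2.45 and 3.42 in control and 7.21, 7.4 and 7.68 in null clones, which lay above the control clones (0.87, SE 0.41, limma adjusted p = 0.186) and passed the test without control D7 (1.11, 0.0119). At DIV2 it was 0.319, 0.877 and 0.782 against 1.08, 0.501 and 0.536, below every OPC library. The log2 change from OPC was -1.49 in control (SE 0.41, limma adjusted p = 0.0122; 0.061 with deposited TPM) and -2.32 in null clones (0.000994). By DIV4 it had a wide spread in control, 0.310, 2.60 and 5.22, and was 3.30, 2.01 and 3.25 in null clones. The null change at DIV4, -1.15 (SE 0.41, limma adjusted p = 0.0443), was lost in 8 of 12 alternatives, the clone block (0.0532) and the fits without control D3, null 3F, null D6 or null 7F among them.

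Stat2 rose from OPC to DIV2 by 0.59 in control (SE 0.19, limma adjusted p = 0.0303) and by 0.79 in null clones (0.00772). The control call was lost in each of the 6 fits without 1 clone (adjusted p at most 0.0709), the null call without 3F (0.121) or 7F (0.0824). Irf9 rose to DIV4 by 0.67 in control (SE 0.18, adjusted p = 0.0124) and 0.64 in null clones (0.0145). The first was lost without control E8 (0.0969), the second without 3F (0.0615), D6 (0.0947) or 7F (0.15). Tapbp rose in null clones by DIV2, from 2.41, 5.15 and 2.96 to 7.54, 8.58 and 4.72 (0.83, SE 0.28, adjusted p = 0.0374), with a call lost without 3F (0.321), D6 (0.0715) or 7F (0.0861).

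With the clone as a block, 5 members were higher in control clones at DIV4 than in OPCs in place of 2. How many of all genes this fit called is not given here, so the count does not compare members with all genes. Ifi27 (0.85, limma adjusted p = 0.0151), B2m (0.87, 0.0457) and H2-D1 (0.88, 0.0201) joined Gbp3 and Irf9. In the same fit Ifi27 also passed in control clones at DIV2 (0.71, 0.0287), and Stat2 (0.50, 0.0256) and Tapbp (0.75, 0.0351) passed in null clones at DIV4. Ifi27, a small hydrophobic protein, was the most abundant member. It was 14.7, 23.3 and 17.5 in control OPCs and 20.9, 48.1 and 31.6 in null OPCs. At DIV2 the null clones (40.1, 52.1 and 38.3) lay just above the control clones (24.6, 29.7 and 38.2), and at DIV4 the groups overlapped.

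The 25 members below a mean of 1 were not tested, and their values are a description. Counting all 34 members, null clones lay above all control clones in 5 at OPC, 6 at DIV2 and 6 at DIV4, against 10.7%, 9.43% and 8.3% of the 30396 genes listed above 0 in any library. They lay below all control clones in 2, 2 and 4, against 6.75%, 8.34% and 8.15%. With deposited TPM the counts above were 19, 2 and 3, against 48.8%, 4.83% and 3.48% of all genes, and those below 0, 3 and 3, against 0.711%, 11.3% and 7.54%. In OPCs the 5 members above kept their side, while Stat2 and Xaf1 turned and lay above the control clones. The members that then overlapped were Irf1, Ifi27, Rtp4 and Lgals3bp at DIV2, and Irf1, Ifit1, Rsad2 and B2m at DIV4.

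Among the low effectors, Rsad2 and Rtp4 had the null clones above the control clones at all 3 stages. Rsad2 (viperin) makes a chain-terminating nucleotide that blocks viral replication. It was 0.102, 0.0761 and 0.00326 in control OPCs and 0.384, 0.783 and 0.537 in null OPCs. At DIV2 it was 0.0291, 0.0406 and 0.135 against 0.325, 0.756 and 0.747, and at DIV4 0.0651, 0.0685 and 0.126 against 0.181, 0.617 and 0.199. The null mean was 9.39, 8.93 and 3.85 times the control mean on levels below 1 throughout. At DIV2 a processed transcript of 430 bases had a rescaled TPM of 0.298 in D6 and 0.367 in 7F, within totals of 0.756 and 0.747. At DIV4 it had 0.399 in D6, within a total of 0.617. The protein-coding transcript alone also lay higher in all null clones at each stage, at DIV4 with 0.107 to 0.131 against 0.0285 to 0.0732. The fit without a filter called the OPC difference (0.56, limma adjusted p = 0.0284) but not DIV2 (0.0609) or DIV4 (0.393). Null D6, the null OPC library with 34.8% of its TPM in the 3 noncoding features, held the highest null OPC level of Rsad2, B2m and Ifi27, and the part of that share was not tested.

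Rtp4, a transmembrane protein induced by interferon, was listed at 0 in all 3 control OPC libraries and was 0.199, 0.422 and 0.288 in null OPCs. The control OPC libraries listed 54031 to 59435 transcripts above 0, the null OPC libraries 66881 to 70068, and the part of this gap in the zeros of Rtp4, Ifi35 and Lgals3bp was not tested. The fit without a filter gave 0.38 there (limma adjusted p = 0.00823) and 0.26 for the clone means (0.0370). At DIV2 the null values were 0.249, 0.0665 and 0.0806 and the control values at most 0.0503; at DIV4 they were 0.360, 0.164 and 0.271 and at most 0.0842. Rtp4 shares 12.5% of its 31-base words with other genes and is uncertain.

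Lgals3bp, a secreted galectin-binding glycoprotein, set the genotypes apart late. It was listed at 0 in the control OPCs and was at most 0.104 in null OPCs. At DIV2 control clones held 0.132, 0.185 and 0.110 and null clones 0.406, 0.193 and 0.409. At DIV4 the control values were 0.162, 0.363 and 0.418 and the null values 2.74, 1.12 and 1.25, a 5.43-fold higher mean. The fit without a filter called that difference (1.0, limma adjusted p = 0.00695) and the null rise from OPC (1.31, 0.000207).

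**Figure D4:**
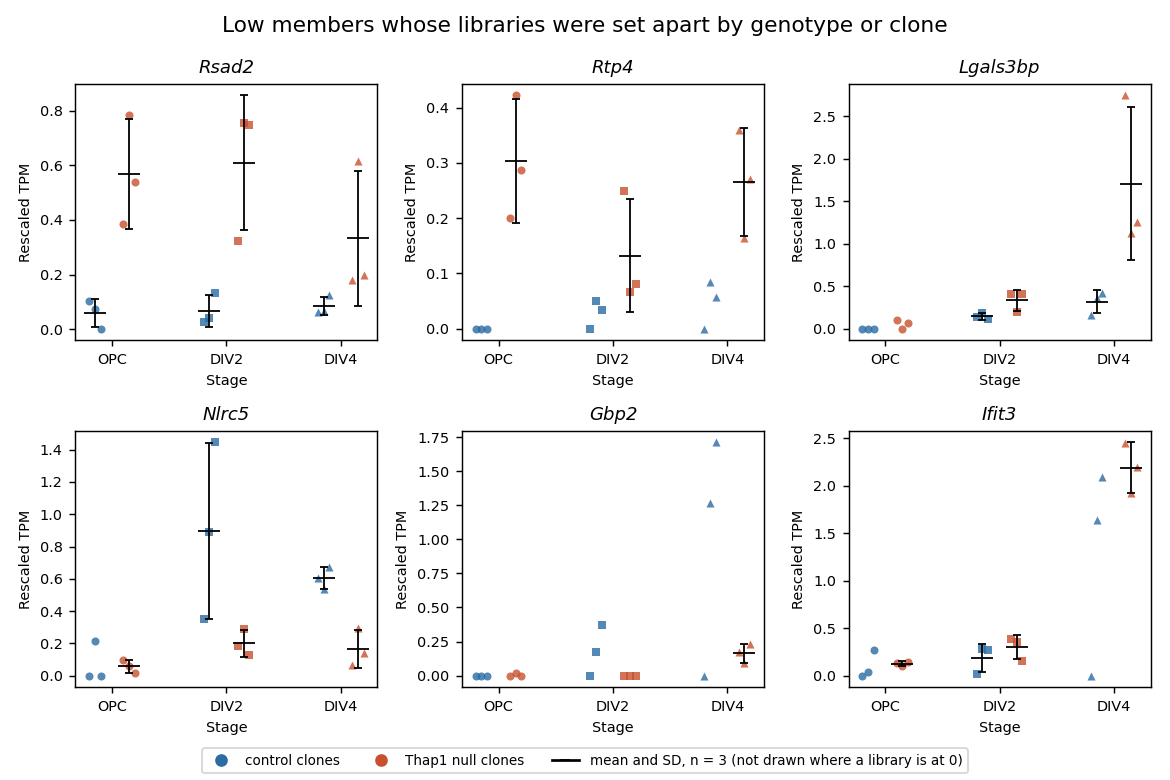
Rescaled TPM of 6 members with a mean under 1, chosen after their values were seen, by stage, in control (blue) and null (orange) clones; bars are mean and SD, n = 3, left out where a library is at 0. Rsad2 and Rtp4 are higher in all null than in all control clones at each stage, Nlrc5 is lower at DIV2 and DIV4, and the control D7 library is at 0 for Gbp2 and Ifit3 at DIV4.

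Gbp2 and Ifit3 separated clones within the control group. Gbp2, another guanylate-binding GTPase, was listed at 0 in D7 at every stage, while D3 and E8 held 0.170 and 0.370 at DIV2 and 1.27 and 1.71 at DIV4. The null clones held at most 0.230. At DIV4 Ifit3 was 0, 1.64 and 2.09 in the control clones and 2.45, 1.92 and 2.19 in the null clones, after 0.385 or less in every earlier library. Both genes were thus at 0 in the DIV4 library with the lowest astrocyte marker sum, 4.87 against 103 to 359 in the other 5, and the part of that difference was not tested. The fit without a filter called the rise of Ifit3 in null clones (1.5, limma adjusted p = 0.00464) and of Gbp2 in control clones (0.87, 0.0407). Ifit3 shares 61.8% of its 31-base words with other genes, chiefly Ifit3b, and is uncertain.

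The remaining members varied without such a division at more than 1 stage. Among the sensing genes, Ifih1 (MDA5) was higher in all null than in all control OPCs, 0.0514 to 0.153 against at most 0.0263. Trim25, a ubiquitin ligase that activates RIG-I, was so at DIV2 (0.0840 to 0.122 against at most 0.0273). Dhx58 (LGP2) ranged up to 0.777 and Zbp1 up to 0.0222, with overlap at each stage. The Dhx58 peak, in control E8 OPCs, lay wholly in a processed transcript without a coding sequence. Averaged over libraries, protein-coding transcripts held 19.3% of the Dhx58 level, 35.6% of Oasl2, 40.5% of Irf7 and 41.4% of Ifi35. They held 45.8% of Tap2 and 48.8% of Parp14. Ifi35 was listed at 0 in the control OPCs and was 0.239, 0.162 and 0.299 in null OPCs. Ifit1 at DIV4 was higher in null clones (0.151 to 0.223 against at most 0.129), and Xaf1 in OPCs was lower (at most 0.521 against at least 0.641). The transcription factor Irf7 reached at most 0.865 and Usp18, a brake on interferon receptor signalling, at most 0.465. The ADP-ribosyltransferase Parp14 reached at most 0.130 and Ifitm3, which blocks viral entry and shares 20.5% of its 31-base words with other genes, at most 0.148, an uncertain level.

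Of the 37 wider pathway genes tested, null OPCs had 3 higher and 2 lower, shares near the 5.95% and 5.28% of all genes. At DIV2 and at DIV4 1 was higher, against 1.58% and 2.81% of all genes, and 0 were lower, against 1.09% and 1.77%. The clone means gave 1 in each direction, against 2.23% and 1.33%. Irgm1, an immunity-related GTPase of autophagy and pathogen vacuoles, was called in all 4. It was 10.8, 11 and 16.8 in control and 30.5, 36.5 and 34.9 in null OPCs, 22.2, 18 and 16.9 against 56.5, 34.5 and 46.2 at DIV2, and 8.92, 13.4 and 23.6 against 86.0, 59.8 and 56.2 at DIV4. No control library reached a null library of its stage. The log2 change was 1.36, 1.20 and 2.14 (SE 0.29 each, limma adjusted p = 0.00846, 0.0377 and 0.00063), and 1.57 for clone means (0.00808). The calls held in 13 of 14, 7 of 14, 13 of 14 and 12 of 12 alternatives.

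Irf3, the factor that switches on interferon genes, was 11.5, 12 and 15.1 in control and 5.87, 5.64 and 6.12 in null OPCs. It was lower in null OPCs (-1.0, SE 0.16, limma adjusted p = 0.00171) and in clone means (-0.64, 0.0196), but the OPC change was 0.80 with deposited TPM, relative to a median of all genes of 1.5. Socs3, an inhibitor of JAK signalling, was 21.2, 27.3 and 31.3 against 7.27, 12.1 and 8.78 in OPCs, lower in null clones by -1.42 (SE 0.26, adjusted p = 0.00354; 0.52 with deposited TPM), and overlapped at DIV2 and DIV4. Its DIV4 interaction was 1.60 (SE 0.37, adjusted p = 0.0371; -0.53 with deposited TPM). Eif2ak2 (PKR), a kinase that halts translation on viral RNA, was higher in null OPCs, 3.76, 3.82 and 3.39 against 1.84, 1.05 and 2.37 (0.79, SE 0.20, adjusted p = 0.0218). Canx, the chaperone calnexin, was also higher there, 129, 153 and 143 against 112, 70.5 and 91.2 (0.65, SE 0.18, adjusted p = 0.0317). The OPC calls held in 12 of 14 alternatives for Irf3 and for Socs3, in 8 of 13 for Eif2ak2 and in 7 of 14 for Canx. Irf3 in clone means held in 7 of 12 and the Socs3 interaction in 7 of 13. Protein-coding transcripts held 34.4% of the Irf3 level, averaged over libraries.

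Between stages, the wider list had 8 of 37 genes higher and 3 lower in control clones at DIV2, against 19.2% and 15.4% of all genes, and 6 and 2 at DIV4, against 16.6% and 14.9%. In null clones the counts were 4 and 1 at DIV2, against 14.9% and 12.6%, and 11 and 5 at DIV4, against 17.1% and 15.9%. The interactions called Socs3 alone, at DIV4.

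**Figure D5:**
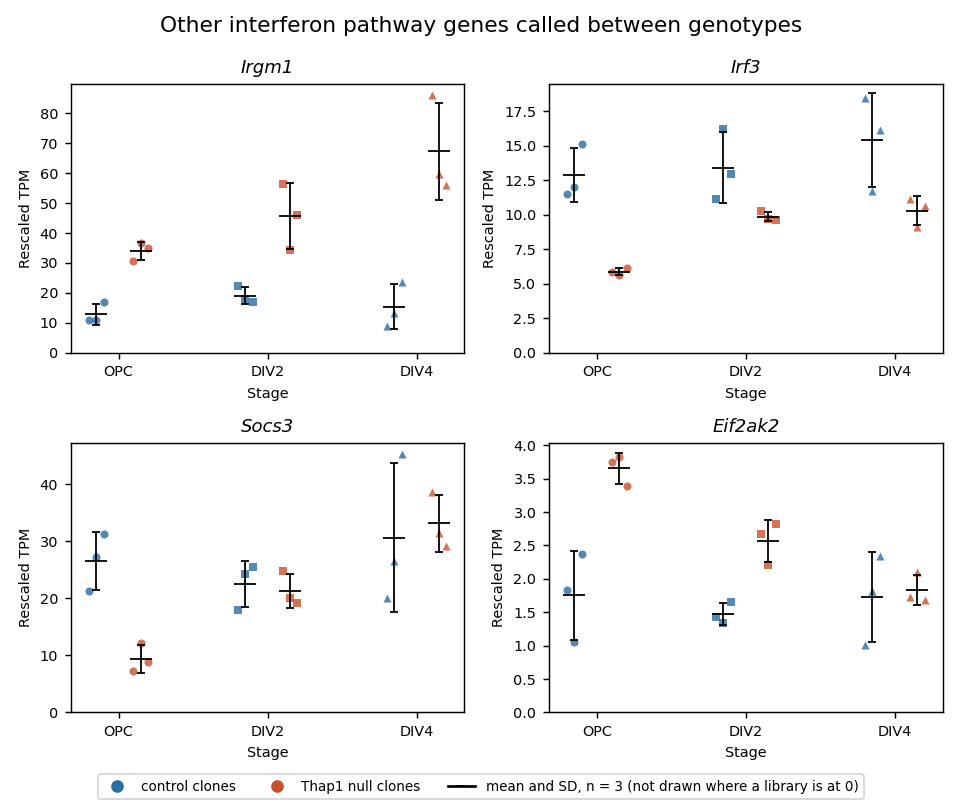
Rescaled TPM of 4 other interferon pathway genes called between genotypes, by stage, in control (blue) and null (orange) clones; bars are mean and SD, n = 3. Irgm1 lies between 30.5 and 86.0 in null and between 8.92 and 23.6 in control libraries, whereas Socs3 and Eif2ak2 differ in OPCs and overlap at DIV4.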

How the data were processed

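The authors deposited TPM per Ensembl transcript for 93666 transcripts in 18 libraries made with a stranded total RNA kit with ribosomal RNA removal, per the labels' protocols. STAR, Picard and mm10 are named in the submitters' processing notes; the quantifier and annotation are not given in the sources used here. TPM was summed by symbol (27 symbols that had become dates were restored) and divided by median-of-ratios factors from the 14689 genes above 0 in all libraries: 0.136 to 0.315 in control OPC, 0.715 to 1.42 in null OPC and 0.956 to 2.04 later.

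Genes with a mean rescaled TPM of at least 1 were tested with limma 3.58.1 (R 4.3.3, eBayes with trend) on log2(value + 1), 1 mean per group over 18 libraries, called at a Benjamini-Hochberg adjusted p under 0.05. The fit was tested on simulated data. Positions and shared 31-base words came from GENCODE M21 (96.5% of transcripts matched), and a gene sharing at least 10% is called uncertain. Tables and plots used Python 3.11.15, pandas 2.3.3, numpy 2.4.6 and matplotlib 3.10.9.

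A clone gives 1 library per stage, so clones pair the stages by design. Deviations from group means of the same clone correlated at 0.118 on average (18 pairs, -0.0136 to 0.425), against -0.059 for different clones (36 pairs). The block fit used clone as a fixed effect for stage changes and as a random effect (correlation 0.124) between genotypes. The members and lists were chosen with earlier results of these data known. Values per library are given for members called between genotypes and for Stat2, Irf9, B2m and H2-K1; other members with values were chosen after these were seen, and wider genes were named when called between genotypes, besides Ifnar1, Ifnar2 and the ligands. One further gene of the naming rule is not reported here.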

Additional observations from a re-analysis of the deposited data

How the results depend on the processing

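The settings changed in turn were the scaling (deposited TPM or quantiles), the pseudocount (0.1), the filter (none, or a mean of 5), the size of change (log2 of 1), the clone as a replicate block, the libraries (1 clone out, or a fit to 6) and, chosen after seeing the data, the transcripts (coding only). Of 172 alternative values of the 14 called member results, 123 kept direction and call, 48 lost the call and 1 turned: Ifit2 in control DIV2 against OPC was 0.061 with deposited TPM. Member calls in null against control OPCs, 0 as reported, were 7 with deposited TPM (all higher), 1 with quantile normalization, 2 with no filter and 0 to 1 without 1 clone. At DIV4 the 2 calls became 0 with deposited TPM, a pseudocount of 0.1, a mean of 5, a log2 change of 1 or only 6 libraries, 1 with the block or coding transcripts (Gbp3), 1 with no filter (Lgals3bp in place of both), and 0 to 1 without 1 clone (B2m in place of both without control D7). For clone means, 0 became 2 with deposited TPM, 1 with no filter and 0 to 1 without 1 clone. For control DIV2, 3 became 8 with deposited TPM and 0 with a mean of 5. For control DIV4, 2 became 10 with deposited TPM, 6 with no filter, 5 with the block, 0 with a mean of 5, 1 with a log2 change of 1 and 1 to 3 without 1 clone. For null DIV2, 4 became 1 with a mean of 5, 2 with a log2 change of 1 and 2 to 4 without 1 clone. For null DIV4, 3 became 5 with no filter, 1 with a mean of 5 (Tapbp, not called as reported) and 1 to 4 without 1 clone. The interactions, 0 as reported, gave 7 lower with deposited TPM at DIV2 and at DIV4, and 1 higher with the block at DIV4. A mean of 5 leaves fewer members to test, and deposited TPM moves the median of all genes in comparisons with control OPCs. The share of all genes called under each setting is not given here, so these counts do not compare members with all genes. The cause of the other shifts was not tested. Precision is limited by having 3 clones per group. Depth is unknown, so the part of counting error in the spread between clones cannot be given.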
